A study of Mus musculus with 45 samples.

Results

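The crystallins and the lens water channel Mip are 10 genes whose best known products fill the fibre cells of the eye lens. The genes were taken by their symbols (Cryaa, Cryab, Cryba1, Cryba2, Cryba4, Crybb1, Crybb2, Crybb3, Crygs and Mip), and all 10 were among the 36172 genes listed for each tissue. RNA of retina, hippocampus and cortex had been sequenced in male and female mice of 3 months after tamoxifen or after its vehicle alone, sunflower oil. Tamoxifen is an oestrogen receptor modulator used in mice to activate tamoxifen-dependent Cre recombinase, and the stated question was whether giving it leaves lasting changes in RNA of the nervous system. Retina groups held 4 tamoxifen and 3 vehicle females and 4 tamoxifen and 4 vehicle males. Hippocampus groups held 4, 3, 4 and 3 animals in the same order, and cortex groups 4, 3, 3 and 4. No source used here gives strain, genotype, tamoxifen dose or the time since dosing, so the groups are described by sex, treatment and age alone. An animal is called by the number in its library's title, and libraries of different tissues with the same number came from the same animal.

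Alpha crystallins (Cryaa and Cryab) are small heat shock proteins that hold unfolding proteins in solution. Beta crystallins (the Cryba and Crybb genes) and gamma crystallins (among them Crygs) are the packed structural proteins that give the lens its refractive power. Mip encodes aquaporin 0, the main membrane protein of lens fibres. Of the family, Cryab is the widely expressed member, with known expression in heart, skeletal muscle, astrocytes and oligodendrocytes, and Crybb1 is also known as a transcript of mouse microglia. In a dissected retina, lens RNA is a known carry-over, since the lens lies against the retina until it is removed.

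Of the lens members, 5 were the only one on their chromosome and the other 4 formed 2 close pairs. In the coordinates of the deposited tables (GRCm38, equal to mm10), Cryaa lay on the plus strand of chromosome 17, at chr17:31677945-31681724. Cryba1 lay at chr11:77718732-77725293, Cryba2 at chr1:74889944-74893135 and Crygs at chr16:22805203-22811410, all on the minus strand. Mip lay on the plus strand at chr10:128225838-128231811. The remaining beta crystallins shared chromosome 5. There Cryba4 (chr5:112246533-112252502, minus strand) and Crybb1 (chr5:112255821-112269582, plus strand) pointed away from each other with 3318 bases between them. Crybb2 (chr5:113058265-113068766) and Crybb3 (chr5:113075839-113081584) lay on the same, minus strand with 7072 bases between them. Cryab (chr9:50752758-50756633, plus strand) lay back to back with Hspb2, another small heat shock protein gene, with 403 bases between them.

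The RefSeq promoter table (GRCm38.p6, 250 bases before to 50 bases after each start) held a window for 9 of the 10 members and none for Cryab. The windows shown here are those of the alpha crystallin, a beta crystallin of each kind (acidic and basic) and the water channel, which were high in the same retina libraries, and that of Crybb2, the basic beta crystallin with the highest level, beside them. Capitals mark the core that Maf factors bind in lens promoters, TGCTGA. Each line reads 5′ to 3′ in the direction of the gene.
Cryaa promoter, chr17:31677681-31677980, plus strand: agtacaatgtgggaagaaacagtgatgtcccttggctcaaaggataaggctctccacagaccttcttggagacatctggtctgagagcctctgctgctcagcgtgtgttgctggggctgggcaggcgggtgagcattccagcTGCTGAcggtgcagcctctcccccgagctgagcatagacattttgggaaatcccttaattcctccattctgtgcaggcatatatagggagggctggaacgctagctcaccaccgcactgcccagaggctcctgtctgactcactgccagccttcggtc
Cryba1 promoter, chr11:77725244-77725543, minus strand: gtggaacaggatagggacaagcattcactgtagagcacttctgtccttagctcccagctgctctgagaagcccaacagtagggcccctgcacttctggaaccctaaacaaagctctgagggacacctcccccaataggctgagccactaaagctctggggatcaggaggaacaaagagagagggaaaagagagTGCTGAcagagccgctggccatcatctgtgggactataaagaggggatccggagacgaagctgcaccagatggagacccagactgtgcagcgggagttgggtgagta
Crybb1 promoter, chr5:112255570-112255869, plus strand: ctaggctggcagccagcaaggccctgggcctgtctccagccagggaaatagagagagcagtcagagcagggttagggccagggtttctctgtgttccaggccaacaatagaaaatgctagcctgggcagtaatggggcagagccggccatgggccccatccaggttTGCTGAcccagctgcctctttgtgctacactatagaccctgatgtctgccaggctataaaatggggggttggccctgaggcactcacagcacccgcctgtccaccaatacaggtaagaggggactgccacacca
Mip promoter, chr10:128225560-128225859, plus strand: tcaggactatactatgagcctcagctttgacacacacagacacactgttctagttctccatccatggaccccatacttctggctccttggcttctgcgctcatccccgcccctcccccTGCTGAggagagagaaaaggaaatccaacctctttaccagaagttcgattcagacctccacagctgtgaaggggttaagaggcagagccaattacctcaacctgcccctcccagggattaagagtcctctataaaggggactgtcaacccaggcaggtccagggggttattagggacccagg
Crybb2 promoter, chr5:113070068-113070367, minus strand: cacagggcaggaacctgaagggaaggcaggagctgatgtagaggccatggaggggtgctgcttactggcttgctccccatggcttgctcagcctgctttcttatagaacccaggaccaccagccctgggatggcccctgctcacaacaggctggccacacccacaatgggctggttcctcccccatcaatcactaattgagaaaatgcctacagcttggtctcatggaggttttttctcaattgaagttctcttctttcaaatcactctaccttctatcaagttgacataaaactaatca
Relative to the RefSeq start, the core began at base -108 in Cryaa, -57 in Cryba1, -84 in Crybb1 and -132 in Mip. It was not in the Crybb2 window. Of the windows shown, those of Crybb2, Cryaa and Mip have a RefSeq start outside the span that the deposited tables give for the gene, with Crybb2 the farthest. The Cryaa and Mip windows still reach into that span, while the whole Crybb2 window lies beyond it. Bases next to the Crybb2 start in the deposited tables were thus not searched, and the missing core says nothing about them. Searched on both strands, TGCTGA was in 8 of the 9 member windows and in 19.48% of all 32851 promoter windows of the same length. The TATA box letters TATAAA were in 5 of 9 member windows and in 13.62% of all windows. The heat shock element GAANNTTC was in 0 of 9 member windows and in 7.86% of all windows. No overlap between these motifs was removed, the motifs were chosen with the genes in view, and a match describes letters only.

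The 15 retina libraries held 9143811 to 18253874 counts, the 14 hippocampus libraries 31154309 to 44153244 and the 14 cortex libraries 10259768 to 22375163. Levels are CPM, counts per 1000000 of a tissue's adjusted library size, and 3 counts, the limit that a count of 0 allows, stood for 0.164 to 0.335 CPM in retina, 0.0677 to 0.0963 CPM in hippocampus and 0.133 to 0.293 CPM in cortex. The tissue labels held in the defining markers. Summed over 10 rod photoreceptor genes, retinas held 50520 to 60650 CPM, hippocampi 4.80 to 8.92 CPM and cortices 15.9 to 91.4 CPM. Summed over 12 oligodendrocyte genes, retinas held 81.6 to 99.5 CPM, hippocampi 3422 to 4546 CPM and cortices 5031 to 6617 CPM.

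Lens transcripts were abundant in 3 of the 15 retinas, all from tamoxifen animals, and sparse in the other 12. Summed over the 9 members other than Cryab, tamoxifen retinas held 480.4 CPM in animal 959 (male), 124.9 CPM in animal 951 (female), 44.1 CPM in animal 962 (male), 11.8 CPM in animal 960 (male) and 1.47 to 2.44 CPM in the remaining 4. Vehicle retinas held 1.71 to 6.001 CPM, with a median of 2.65 CPM over 7 libraries. The groups overlapped, since 4 of the 8 tamoxifen retinas lay within or below the vehicle range. Retinas over 5 times the median of the 15 are called lens-rich below. The median was 2.65 CPM, the lowest lens-rich library stood at 44.1 CPM, and the highest library outside the limit, animal 960, at 11.8 CPM. In bulk RNA, more lens cells and more RNA per lens cell cannot be told apart.

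**Figure D1:**
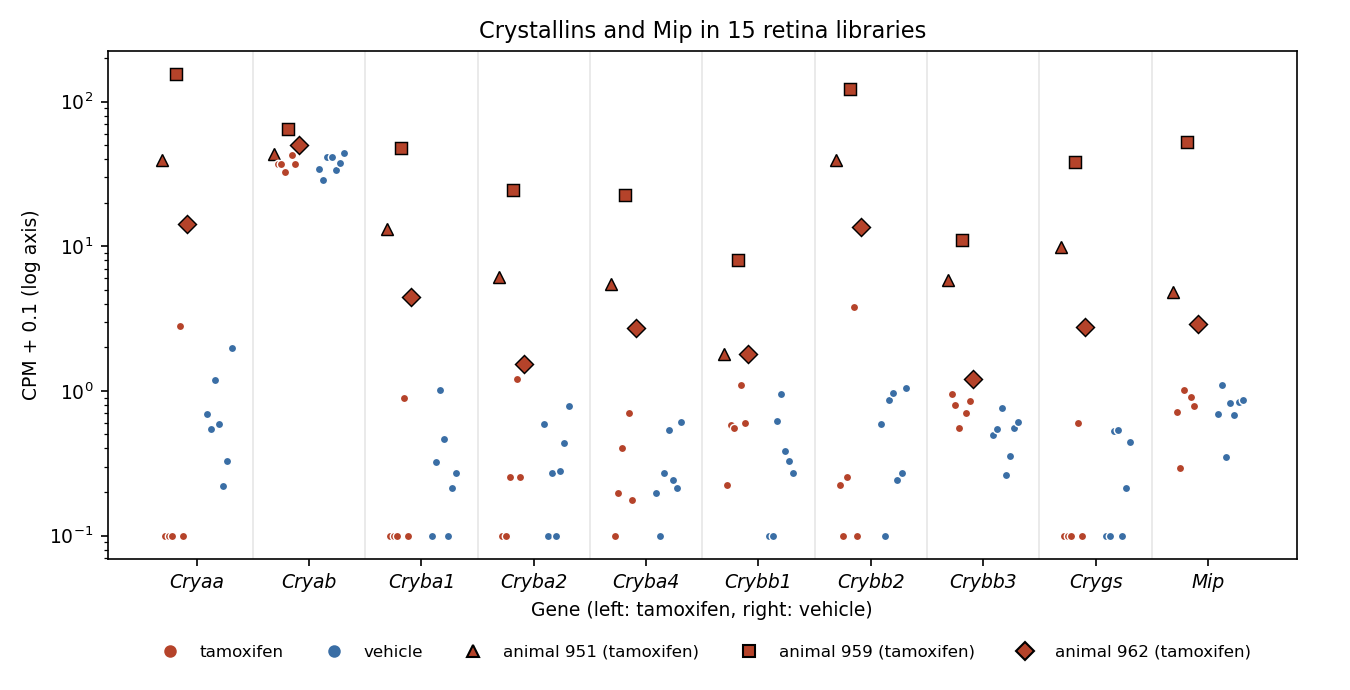
Level of each of the 10 genes in 15 retina libraries, as CPM + 0.1 on a log axis, with tamoxifen animals (red) left of vehicle animals (blue) for each gene and 1 point per library. Animals 951, 959 and 962 (outlined) stand above every vehicle library for the 9 genes other than Cryab, and points at 0.1 are libraries with no count.

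Cryaa, the alpha crystallin mostly restricted to lens, was high in the 3 lens-rich retinas and had no count in 4 others. Its level was 155.2 CPM in animal 959, 39.2 CPM in animal 951, 14.04 CPM in animal 962 and 2.72 CPM in animal 960, with 0 counts in the other 4 tamoxifen retinas. Vehicle retinas held 0.121 to 1.89 CPM of Cryaa with a median of 0.491 CPM, and none was at 0. Tamoxifen retinas thus lay above the vehicle range or had no count. As 3 counts stood for 0.164 to 0.335 CPM in retina, a count of 0 is not shown to lie below that range. Crybb2, the beta crystallin most abundant in adult lens, was at 121.4 CPM in animal 959, 39.4 CPM in animal 951, 13.4 CPM in animal 962 and 3.70 CPM in animal 960, against 0 to 0.943 CPM in vehicle retinas. The other 4 tamoxifen retinas held 0 to 0.152 CPM of Crybb2. Cryba1, whose mRNA gives the beta A3 and beta A1 proteins, was at 47.8, 12.97 and 4.32 CPM in animals 959, 951 and 962, with 0 to 0.787 CPM in the other tamoxifen retinas and 0 to 0.918 CPM in vehicle retinas.

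Crygs, the gamma-S crystallin of the adult lens, was at 38.0 CPM in animal 959, 9.82 CPM in animal 951 and 2.66 CPM in animal 962, with 0 to 0.504 CPM in the other tamoxifen retinas and 0 to 0.436 CPM in vehicle retinas. Cryba2 and Cryba4, 2 acidic beta crystallins, reached 24.5 and 22.5 CPM in animal 959, 5.98 and 5.39 CPM in animal 951, and 1.43 and 2.63 CPM in animal 962. Vehicle retinas held at most 0.686 CPM of Cryba2 and 0.514 CPM of Cryba4. Crybb3, another basic beta crystallin, was at 10.99, 5.77 and 1.11 CPM in animals 959, 951 and 962, against 0.164 to 0.656 CPM in vehicle retinas. Crybb1, the beta crystallin with a known place in microglia, was at 7.94, 1.70 and 1.71 CPM in these 3 animals, against 0 to 0.851 CPM in vehicle retinas. Mip was at 52.1 CPM in animal 959, 4.72 CPM in animal 951 and 2.78 CPM in animal 962, against 0.248 to 1.004 CPM in vehicle retinas. Each of these members was above every vehicle retina in all 3 animals. Per kilobase of exon in the GENCODE annotation, the order of levels in animal 959 was Cryaa (74.8 CPM per kb), Crybb2 (60.4), Crygs (43.4), Cryba1 (30.0), Cryba4 (26.8), Mip (24.3), Cryba2 (20.5), Crybb1 (8.06) and Crybb3 (4.71).

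The mix of lens transcripts was alike in the 3 lens-rich retinas for Cryaa, Cryba1, Cryba2, Cryba4 and Crygs and differed for Mip, Crybb1, Crybb2 and Crybb3. The 9 members together gave 7743 counts in animal 959, 1984 in animal 951 and 464 in animal 962, and each share below carries its exact (Clopper-Pearson) 95% interval, which covers counting error only. Cryaa made up 32.3% of these counts in animal 959 (31.3 to 33.4%), 31.4% in animal 951 (29.3 to 33.4%) and 31.9% in animal 962 (27.7 to 36.4%). The Cryba1 share was 9.96% (9.30 to 10.7%), 10.4% (9.08 to 11.8%) and 9.70% (7.16 to 12.8%) in the same order. That of Crygs was 7.92% (7.33 to 8.54%), 7.86% (6.72 to 9.14%) and 6.03% (4.05 to 8.604%). Cryba2 made up 5.09% (4.61 to 5.60%), 4.79% (3.89 to 5.82%) and 3.23% (1.82 to 5.28%), and Cryba4 4.68% (4.22 to 5.17%), 4.34% (3.48 to 5.33%) and 6.03% (4.05 to 8.604%). The intervals of these shares overlapped between all 3 animals, over a range of 480.4 to 44.1 CPM in the sum.

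Mip made up 10.8% of the lens counts in animal 959 (10.2 to 11.6%), 3.78% in animal 951 (2.99 to 4.72%) and 6.25% in animal 962 (4.23 to 8.85%). The interval of animal 959 lay above those of both other animals. Crybb2 went the other way, with 25.3% in animal 959 (24.3 to 26.3%), 31.5% in animal 951 (29.5 to 33.6%) and 30.4% in animal 962 (26.2 to 34.8%). Crybb3 made up 2.29% in animal 959 (1.97 to 2.64%), 4.64% in animal 951 (3.75 to 5.66%) and 2.59% in animal 962 (1.34 to 4.47%). The Crybb1 share was highest where the lens sum was lowest, with 1.65% in animal 959 (1.38 to 1.96%), 1.36% in animal 951 (0.899 to 1.97%) and 3.88% in animal 962 (2.32 to 6.06%). These are single libraries, so the intervals say nothing about the spread between animals. The level seen in the other 12 retinas was not subtracted from the shares. There Crybb1, Crybb3 and Mip averaged 0.385, 0.520 and 0.657 CPM, against 1.71, 1.11 and 2.78 CPM in animal 962. Their shares in that library thus hold more of this level than those in animal 959.

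**Figure D2:**
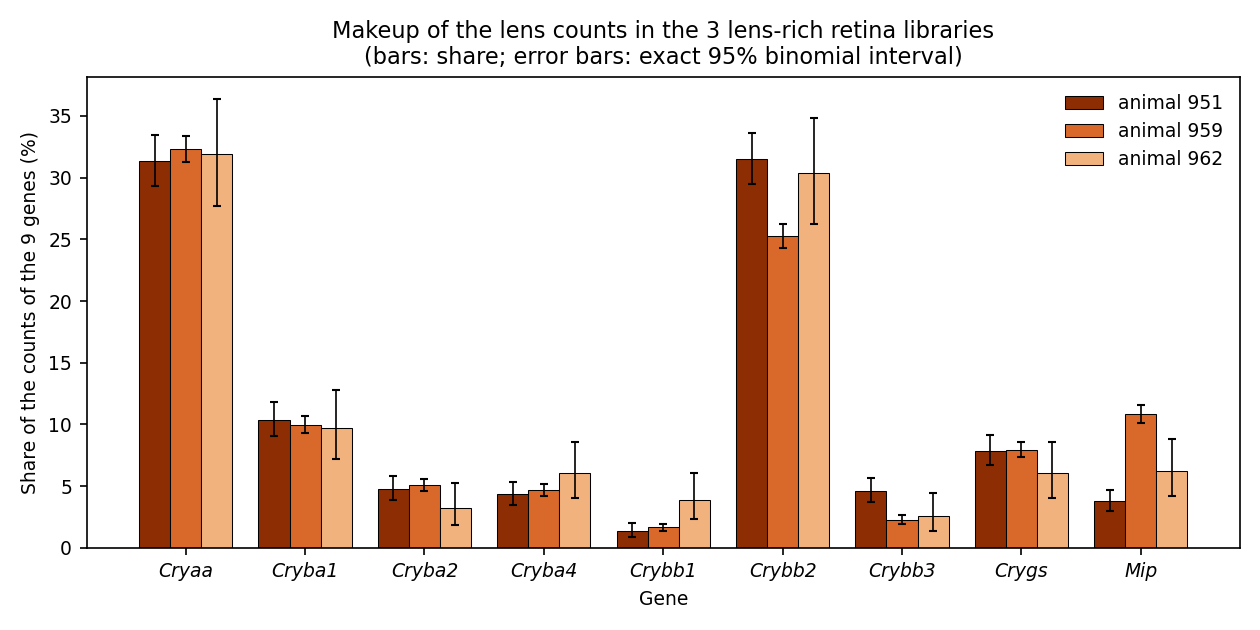
Share of each gene in the counts of the 9 lens members in retina libraries of animals 951, 959 and 962, in percent, with exact 95% binomial intervals. Cryaa stayed at 31.4, 32.3 and 31.9%, while Mip was at 3.78, 10.8 and 6.25%.

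Other genes of lens fibres were high in the same 3 libraries. Among the 7 gamma crystallins looked for, Crygb was at 31.0, 13.8 and 5.33 CPM in animals 959, 951 and 962, with 0 to 0.806 CPM in the other 12 retinas. Crygc was at 21.3, 10.7 and 4.74 CPM with 0 to 1.56 CPM in the others, and Crygd at 15.4, 5.10 and 2.47 CPM with 0 to 0.258 CPM in the others. Crygn stood apart from them, with 0.124, 0.315 and 0.677 CPM in the 3 animals and 0 to 0.686 CPM in the others. Some gamma crystallin genes are close copies of each other, and how the counting split reads between such copies is not given, so their single values are uncertain. In retina 3 of the 7 (Crygb, Crygc and Crygd) passed the filter on low counts. Of these, 0 passed edgeR's test for tamoxifen, against 0.0474% of all genes, and 3 had an unadjusted p under 0.05, against 7.14%. All 3 were high in the lens-rich libraries, which are all tamoxifen, so these counts rest on those libraries and are no separate evidence. Per 100 Cryaa counts, animal 959 had 20.0 Crygb counts (18.1 to 22.0), animal 951 had 35.2 (30.0 to 41.1) and animal 962 had 37.8 (27.3 to 51.8), where the ranges are exact 95% intervals of the ratio.

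In the list of 14 lens fibre structure and channel genes, 7 passed the low-count filter in retina. Of these, 0 passed edgeR's test for tamoxifen, against 0.0474% of all genes, and 2 had an unadjusted p under 0.05, against 7.14%. Its 4 most abundant members in retina were at like levels in lens-rich and other retinas, except for Lenep in animal 959. Tdrd7, a component of RNA granules, was at 444.2, 472.9 and 440.5 CPM in animals 959, 951 and 962 and at 407.2 to 478.8 CPM in the other 12. Lenep, named for the lens epithelium, was at 11.1, 7.35 and 6.69 CPM and at 4.24 to 9.10 CPM in the others. The transporter Slc16a12 was at 4.47, 4.32 and 7.24 CPM and at 3.44 to 8.64 CPM, and the water channel Aqp5 at 3.16, 2.02 and 2.57 CPM and at 1.23 to 3.39 CPM. Other lens fibre genes of the list, chosen after their values were seen, stood out in some or all of the same 3 libraries. Lim2, a lens fibre membrane protein, was at 17.3 CPM in animal 959, 1.69 CPM in animal 951 and 0.476 CPM in animal 962, with at most 0.0764 CPM in the other 12. Lgsn (lengsin) was at 11.4, 5.30 and 2.07 CPM with at most 0.574 CPM in the others. The beaded filament genes Bfsp1 and Bfsp2 reached 10.9 and 6.32 CPM in animal 959. Bfsp2 was at 3.54 CPM in animal 962, above the 2.06 CPM of animal 951, and at 0.197 to 3.12 CPM in the other 12. Animal 951 thus lay within the range of the other 12 for Bfsp2. Lim2 stood at 11.1 counts per 100 Cryaa counts in animal 959 (9.78 to 12.6), 4.34 in animal 951 (2.84 to 6.38) and 3.38 in animal 962 (1.08 to 8.06), so its ratio was highest in the library with the highest Mip share.

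Summed markers of neighbouring eye tissues did not set the 3 libraries apart. Summed over 11 genes of the retinal pigment epithelium, the lens-rich retinas held 119.2 to 1171 CPM and the other 12 held 105.6 to 1490 CPM. The corresponding ranges were 241.1 to 253.4 CPM and 215.5 to 275.3 CPM for 5 genes of the ciliary body and iris, 300.9 to 342.8 CPM and 280.0 to 360.2 CPM for 6 cornea genes, and 215.7 to 839.6 CPM and 196.2 to 914.9 CPM for 8 genes of sclera, choroid and meninges. Rod genes summed to 52910 to 54710 CPM in lens-rich retinas and to 50520 to 60650 CPM in the others. In each of these lists the 3 libraries lay within the range of the other 12. The ciliary body and iris genes also summed to 150.9 to 177.5 CPM in cortex, and the cornea genes to 186.4 to 217.1 CPM. There the pigment epithelium genes summed to 27.65 to 2711 CPM, and those of sclera, choroid and meninges to 801.1 to 1158 CPM. With so much signal outside the eye, the sums of these eye tissue lists could not show a carry-over of a few CPM. Pigment epithelium genes summed to 105.6 to 1490 CPM (median 210.8) in tamoxifen retinas and to 232.4 to 1415 CPM (median 528.6) in vehicle retinas. By edgeR 0 of 11 were called, against 0.0474% of all genes, and 5 had an unadjusted p under 0.05, against 7.14%. Their log2 fold changes had no common direction, with 6 of 11 positive and a median of 0.024.

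None of the 10 members passed the test for tamoxifen in retina. With edgeR's quasi-likelihood test and Benjamini-Hochberg adjustment, averaged over the sexes, 0 of 10 members were called, against 0.0474% of all genes tested, and 9 had an unadjusted p under 0.05, against 7.14% of all genes. DESeq2 called 0 of the 8 members to which it gave an adjusted p, 7 of them with an unadjusted p under 0.05. The filter on low counts was passed by all 9 lens members with the lens-rich libraries and by 5 of them without, so the counts rest on those 3 libraries. Without animal 951 alone, 2 of the 8 members tested had an unadjusted p under 0.05, and without animal 959 alone, 6 of 8. In females 0 of 10 were called, against 0.0406% of all genes, and 0 had an unadjusted p under 0.05, against 6.37% of all genes. In males 0 of 10 were called, against 0.0% of all genes, and 10 had an unadjusted p under 0.05, against 3.99%. For the difference between the sexes 0 of 10 were called, against 0.0%, and 0 had an unadjusted p under 0.05, against 3.37%. DESeq2 likewise called 0 of 8 in each of these contrasts, with an unadjusted p under 0.05 for 2, 8 and 0 of them.

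The fitted log2 fold change of Cryaa, tamoxifen over vehicle, was 4.95 ± 1.40 (SE, 15 libraries, edgeR adjusted p = 0.311). That of Crybb2 was 5.27 ± 1.41 (edgeR adjusted p = 0.267), that of Crybb3 2.63 ± 0.74 (0.295), and that of Mip 2.93 ± 0.95 (0.406). The other 5 lens members had fitted log2 fold changes of 2.32 (Crybb1), 3.73 (Cryba2), 4.16 (Cryba4), 4.595 (Cryba1) and 4.71 (Crygs). A few libraries set these values. Without animal 959, the Crybb2 log2 fold change was 3.93 ± 1.25 and that of Mip was 1.23 ± 0.57, and without animal 951 they were 1.99 ± 2.89 and 2.18 ± 1.10. The Cryaa value was 3.43 ± 1.23 without animal 959 and -0.08 ± 0.54 without animal 951, after which no female tamoxifen retina had a count of it. That of Crybb1 was 4.52 ± 1.30 without vehicle animal 958, the only female vehicle retina with a count of it. Fitted values against a group with no count depend on the prior count and are no measure of size. Without animals 951, 959 and 962, the values were -0.16 ± 0.81 for Crybb2, 0.04 ± 0.40 for Mip and 0.82 ± 0.68 for Crybb1. Of the other lens members, Cryaa and Cryba1 then had no count in any female tamoxifen retina, and Cryba2, Cryba4, Crybb3 and Crygs did not pass the filter, so no fold change is read for them there.

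**Figure D3:**
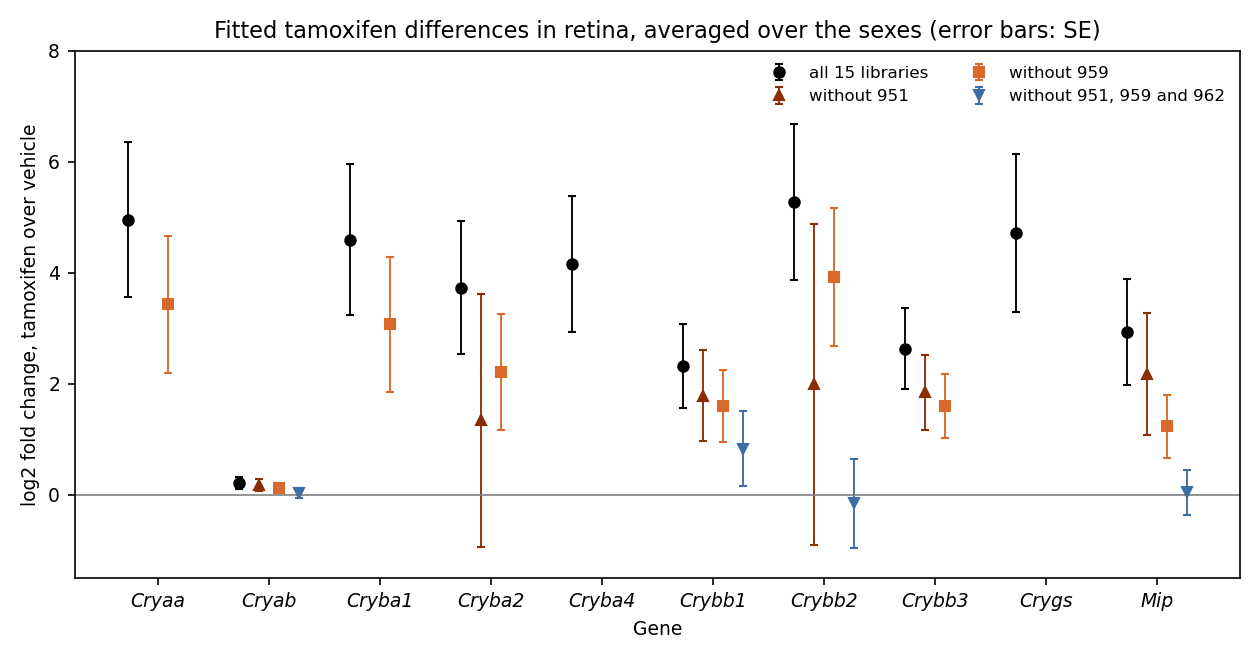
Fitted log2 fold change in retina, tamoxifen over vehicle, averaged over the sexes, for each gene, with SE as error bars, from all 15 libraries and from fits without single lens-rich libraries or all 3. Fits in which a gene failed the low-count filter or had no count in a whole group are not drawn. Mip stands at 2.93 with all libraries and at 0.04 without the lens-rich libraries, and Cryab at 0.21 and 0.03.

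In the 12 other retinas the lens members were sparse, and Mip and Crybb3 were the ones counted in every library. Mip was at 0.193 to 0.914 CPM in 5 tamoxifen retinas and at 0.248 to 1.004 CPM in 7 vehicle retinas, and the groups overlapped. Crybb3 was at 0.457 to 0.848 CPM in the 5 tamoxifen retinas and at 0.164 to 0.656 CPM in the 7 vehicle retinas, with ranges that overlapped. Crybb1 was at 0.123 to 1.01 CPM in the tamoxifen retinas and at 0 to 0.851 CPM in the vehicle retinas. By contrast, Cryaa had 0 counts in 4 of the 12 retinas, all of them tamoxifen, Cryba1 in 6 and Crygs in 7. Cryaa summed to 86.4 expected counts over the 12 libraries, Mip to 102.4 and Crygs to 24.0.

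Cryab differed between tissues in every animal. Its level was 28.4 to 64.8 CPM in retina (median 37.7, n = 15), 62.7 to 91.4 CPM in hippocampus (median 73.8, n = 14) and 87.9 to 115.3 CPM in cortex (median 99.0, n = 14). Retina was below cortex in 14 of 14 animals and below hippocampus in 14 of 14, and hippocampus was below cortex in 13 of 13. In the joint fit over tissues (edgeR quasi-likelihood test, Benjamini-Hochberg adjustment), the log2 fold change was -1.42 ± 0.06 for retina over cortex (adjusted p = 2.61e-23), -1.04 ± 0.06 for retina over hippocampus (adjusted p = 5.93e-19) and -0.38 ± 0.06 for hippocampus over cortex (adjusted p = 6.4e-07). Such differences are common between these tissues, as 88.2%, 89.4% and 69.7% of all genes tested were called in the same 3 comparisons. Per kilobase of exon, median Cryab was at 25.5 CPM in retina, 49.9 in hippocampus and 66.9 in cortex. The summed oligodendrocyte genes followed the same order of tissues. The sums of 8 astrocyte genes did not, with medians of 1443 CPM in tamoxifen and 1469 CPM in vehicle retinas, 6055 and 6109 CPM in hippocampi and 5661 and 5654 CPM in cortices. The part of either cell type in the Cryab difference was not tested.

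**Figure D4:**
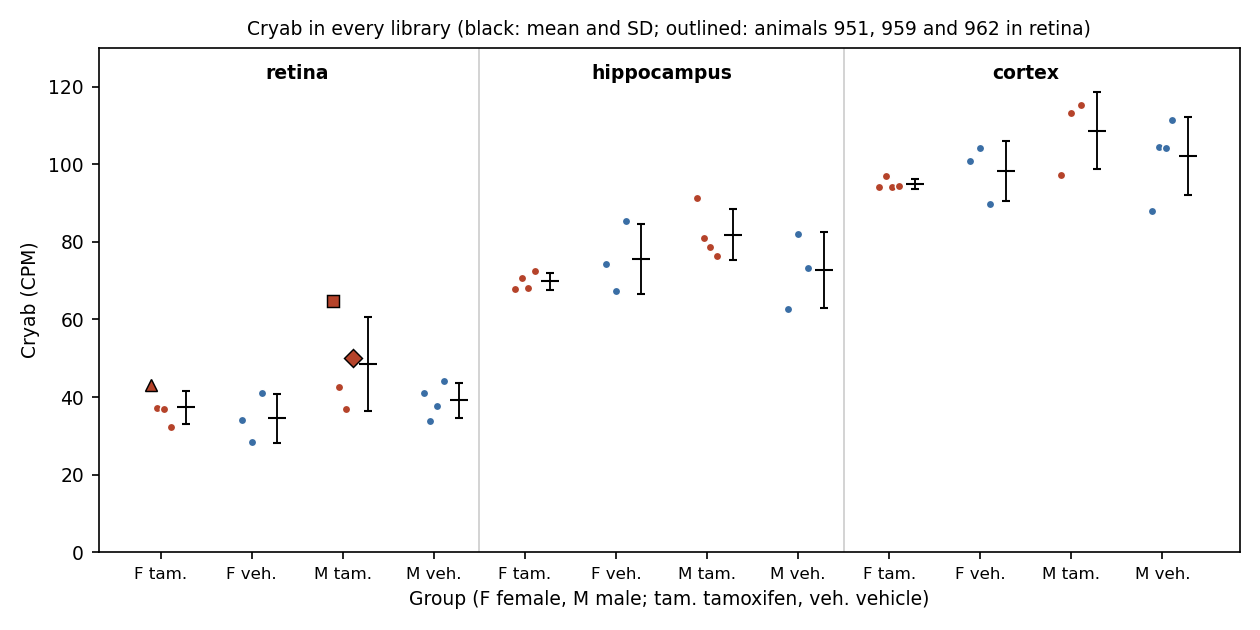
Cryab level in CPM in every library of retina, hippocampus and cortex, by sex and treatment, with tamoxifen (red) left of vehicle (blue), and with the group mean and SD in black. Cortex libraries lie at 87.9 to 115.3 CPM and retina libraries at 28.4 to 64.8 CPM, with retina animals 951, 959 and 962 outlined.

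Cryab did not pass the test for tamoxifen in hippocampus or cortex, and treatment groups overlapped within each sex. In hippocampus, female tamoxifen animals averaged 69.8 ± 2.3 CPM (SD, n = 4) and female vehicle animals 75.7 ± 9.1 CPM (SD, n = 3). Male tamoxifen animals averaged 81.9 ± 6.6 CPM (SD, n = 4) and male vehicle animals 72.7 ± 9.7 CPM (SD, n = 3) there. In cortex, female tamoxifen animals averaged 94.9 ± 1.3 CPM (SD, n = 4) and female vehicle animals 98.3 ± 7.7 CPM (SD, n = 3), while male tamoxifen animals averaged 108.6 ± 9.9 CPM (SD, n = 3) and male vehicle animals 102.0 ± 10.03 CPM (SD, n = 4). The sex-averaged log2 fold change of Cryab was 0.03 ± 0.07 in hippocampus (edgeR adjusted p = 0.948) and 0.02 ± 0.05 in cortex (edgeR adjusted p = 0.953). In hippocampus the effect was 0.29 ± 0.13 higher on the log2 scale in males than in females, with an unadjusted edgeR p of 0.0448 and an adjusted p of 1.0. In cortex this difference was 0.14 ± 0.11 (edgeR adjusted p = 0.935).

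In retina the 2 highest Cryab levels were in lens-rich libraries. Its level was 64.8 CPM in animal 959, 49.96 CPM in animal 962, 43.01 CPM in animal 951 and 32.4 to 42.6 CPM in the other tamoxifen retinas, against 28.4 to 44.2 CPM in vehicle retinas. Animal 951 thus lay within the vehicle range and the other 2 above it. The sex-averaged log2 fold change was 0.21 ± 0.11 (edgeR adjusted p = 0.748, and 0.0678 unadjusted). It was 0.12 ± 0.09 without animal 959 alone. Without the 3 lens-rich libraries it was 0.03 ± 0.09, and with the summed lens level as a covariate 0.03 ± 0.08. In males it was 0.32 ± 0.15 with all libraries (edgeR adjusted p = 1.0, and 0.044 unadjusted) and 0.02 ± 0.14 without the lens-rich ones. Set against the mean of the other 12 retinas, 37.2 CPM, animal 959 had 1.74 times as much Cryab, while for Cryaa it had 245.9 times the mean of 0.631 CPM.

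Crybb1 was the lens member with the highest level per length in brain. Its median was 2.61 CPM per kb in hippocampus and 2.89 CPM per kb in cortex, against 0.398 and 0.544 CPM per kb for Cryba4, the next. It was at 1.32 to 3.51 CPM in tamoxifen hippocampi and at 1.52 to 3.89 CPM in vehicle hippocampi, and at 2.48 to 3.54 CPM in tamoxifen cortices and at 1.87 to 4.04 CPM in vehicle cortices. Counts were present in every one of these libraries, and treatment groups overlapped in both tissues. The tamoxifen log2 fold change was 0.15 ± 0.16 in hippocampus (edgeR adjusted p = 0.869) and 0.02 ± 0.18 in cortex (edgeR adjusted p = 0.991). Retina was below cortex in 13 of 14 animals and below hippocampus in 13 of 14, the exception being animal 959. The log2 fold change was -2.22 ± 0.33 for retina over cortex (edgeR adjusted p = 5.88e-08) and -2.11 ± 0.32 for retina over hippocampus (edgeR adjusted p = 9.4e-08), while hippocampus over cortex was -0.11 ± 0.25 (edgeR adjusted p = 0.713). In vehicle libraries alone, the retina differences were -3.37 ± 0.40 and -3.19 ± 0.40. In the fit of both treatments without animal 958 they were -3.45 ± 0.51 and -3.37 ± 0.51. No female vehicle retina then had a count of Crybb1, so the values without animal 958 are no measure of size.

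The other lens members were sparser in brain. Median levels of Cryba4, Crybb3, Cryba2 and Cryaa in hippocampus, and of Cryba4 and Crybb3 in cortex, lay above the range that 3 counts stand for, while those of Cryba1, Crybb2 and Crygs lay under it in both tissues. Mip was at 0.153 to 0.544 CPM in tamoxifen cortices and at 0 to 0.309 CPM in vehicle cortices, overlapping between treatments, with 51.6 expected counts over 14 libraries. In hippocampus, Mip had 0 counts in all 8 tamoxifen libraries and 4 of 6 vehicle libraries, with 2.0 expected counts in all, although hippocampus libraries were the deepest. Retina over cortex was 2.82 ± 0.66 on the log2 scale (edgeR adjusted p = 0.000233) with all libraries, 1.39 ± 0.33 without the lens-rich retinas and 1.82 ± 0.47 in vehicle libraries alone. Mip did not pass the filter in cortex, and a fit without filter gave a tamoxifen log2 fold change of 0.92 ± 0.56 there (edgeR adjusted p = 0.748). In cortex, medians were 0.456 CPM for Cryba4, 0.374 CPM for Crybb3, 0.291 CPM for Cryba2 and 0.172 CPM for Cryaa. In hippocampus they were 0.334, 0.420, 0.163 and 0.179 CPM for the same genes. Crybb2, Crygs and Cryba1 had 0 counts in 13, 9 and 5 of 14 hippocampi and in 12, 10 and 12 of 14 cortices. Cryba4 and Crybb3, the other members tested in hippocampus, had tamoxifen log2 fold changes of 0.45 ± 0.39 and 0.10 ± 0.29 (edgeR adjusted p = 0.828 and 0.955).

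**Figure D5:**
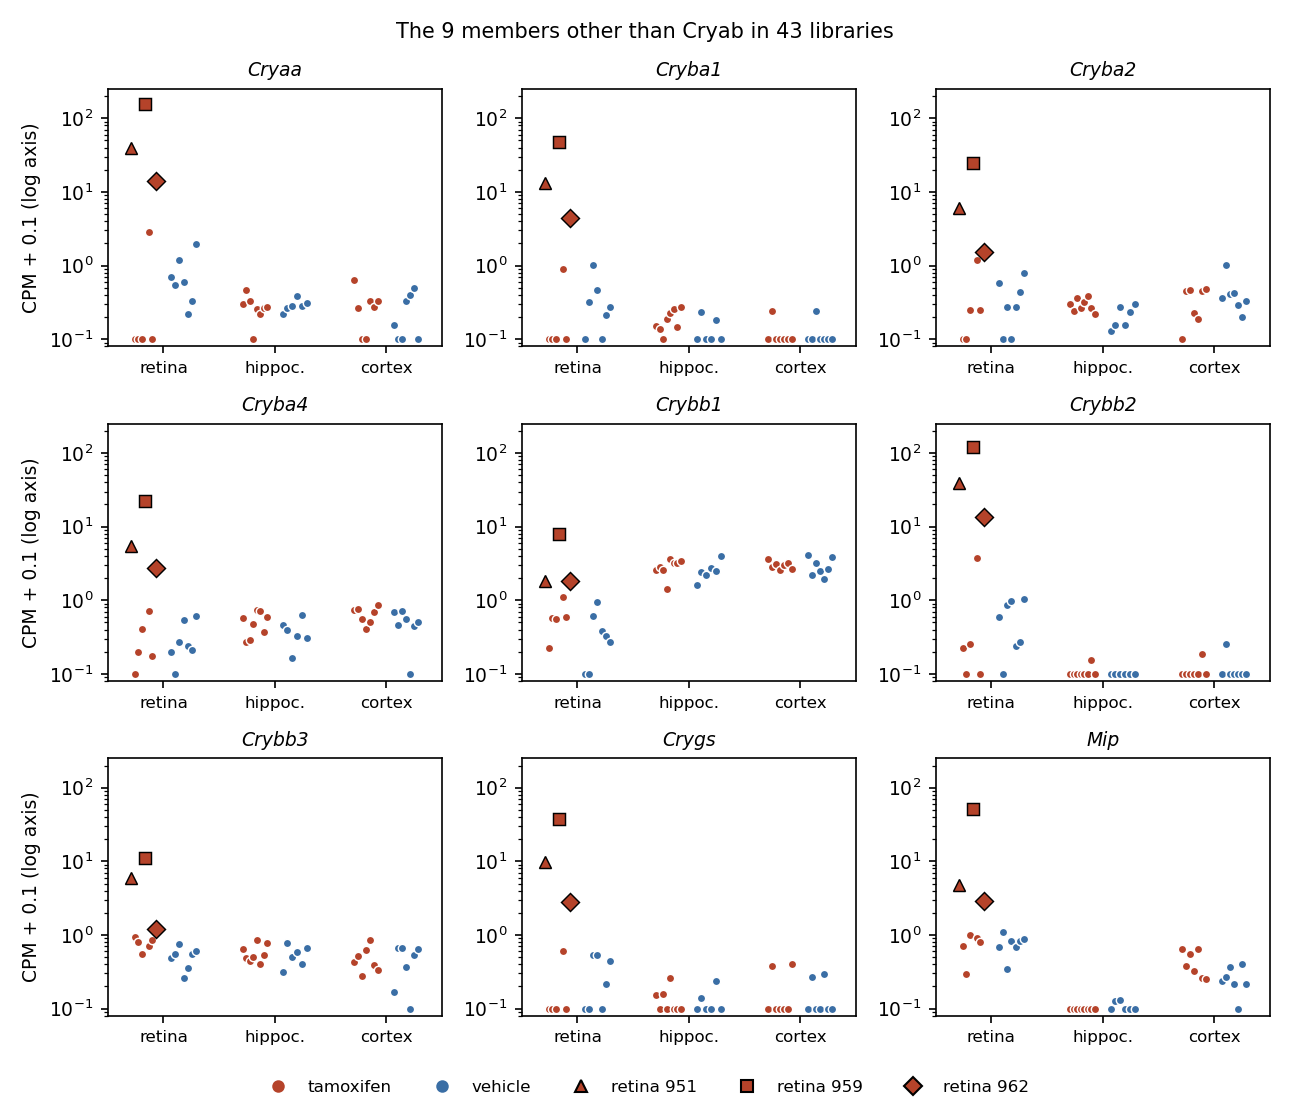
Levels of the 9 members other than Cryab in retina, hippocampus and cortex, as CPM + 0.1 on a log axis, with tamoxifen libraries (red) left of vehicle libraries (blue). Crybb1 lies at 1.32 to 4.04 CPM in the brain tissues and Mip has counts in 2 of 14 hippocampi.

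No member was called for tamoxifen in brain. In hippocampus 0 of the 4 members tested were called averaged over the sexes, in females, in males and for the difference between the sexes, against 0.0652%, 0.013%, 0.0% and 0.0% of all genes by edgeR. An unadjusted p under 0.05 was found for 0, 0, 0 and 1 of them, the 1 being Cryab, against 7.84%, 5.5%, 5.73% and 3.02% of all genes, and DESeq2 called 0 in each contrast. In cortex 0 of the 2 members tested were called in the same 4 contrasts, against 0.606%, 0.375%, 0.0272% and 0.0% of all genes. There 0 had an unadjusted p under 0.05, against 9.39%, 8.5%, 6.82% and 5.5% of all genes, and DESeq2 called 0 as well. Whether the sex-averaged tamoxifen effect differed between tissues was tested in the joint fit. For that test 0 of 10 members were called by edgeR, against 0.0126% of all genes, the smallest adjusted p being 0.528 for Crybb1, and Cryab had an adjusted p of 1.0. DESeq2 was not run for that test, and 5 members had an unadjusted p under 0.05, against 5.28% of all genes. Crybb2, Cryba1 and Mip had no count in some brain groups of sex and treatment, and Crygs had few counts in brain. For these genes the test could not show whether the effect differed between tissues.

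The tissue comparison of the lens members depended on the lens-rich retinas. With all libraries, 9 of 10 members were called for retina over cortex and 9 of 10 for retina over hippocampus, 7 higher and 2 lower in retina in each, against 88.2% and 89.4% of all genes tested. These shares are near those of all genes. The 2 lower ones were Cryab and Crybb1. Without animal 951 alone, 5 of 9 members tested were called for retina over cortex and 4 of 9 for retina over hippocampus, against 13962 and 14147 of all 15867 genes. Without animal 958 alone, 7 and 6 of 10 were called, against 14048 and 14251 of all 16077 genes. Without the lens-rich retinas 5 of the 9 members tested were called in each comparison, with Crybb2 and Mip higher in retina and Cryab, Crybb1 and Cryba4 lower, against 14002 and 14195 of all 16108 genes tested. With animal as a block, 8 members were called for retina over cortex and 9 for retina over hippocampus, against 13984 and 14179 of all 15900 genes, Cryba2 being lost from the retina over cortex calls (log2 fold change 1.09 ± 0.71, edgeR adjusted p = 0.152). In vehicle libraries alone, 4 of 4 members tested were called in each, Crybb2 and Mip higher and Cryab and Crybb1 lower in retina, against 13027 and 13192 of all 15598 genes tested. For hippocampus over cortex, 2 members were called with all libraries, Cryab and Mip, both lower in hippocampus, against 69.7% of all genes tested.

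Genes that share a name, a fold or a regulator with the crystallins were not called for tamoxifen in any tissue. Over all genes tested by edgeR, 0.0474%, 0.0652% and 0.606% were called in retina, hippocampus and cortex. An unadjusted p under 0.05 was found for 7.14%, 7.84% and 9.39% of them. In hippocampus and cortex, 6 and 5 of the 14 lens fibre genes and 2 and 0 of the 7 gamma crystallins passed the filter, 0 of them were called, and 1 lens fibre gene in cortex had an unadjusted p under 0.05. Of 7 other genes named crystallin, all 7 passed the filter in each tissue, and 0 rose and 0 fell in retina, hippocampus or cortex (1 unadjusted p under 0.05 in each). In retina the most abundant of them were Cryzl1 (57.0 CPM on average), Crym, which binds thyroid hormone (54.6 CPM), Crybg3 (33.8 CPM) and the quinone reductase Cryz (29.1 CPM), and their log2 fold changes were 0.06 ± 0.05, 0.07 ± 0.06, -0.15 ± 0.07 and 0.04 ± 0.07. Of 11 lens transcription factors, 8, 9 and 8 passed the filter in retina, hippocampus and cortex, 0 were called, and 1, 1 and 0 had an unadjusted p under 0.05. Pax6 (305.5 CPM), Prox1 (114.7 CPM), Six3 (82.7 CPM) and Sox2 (25.01 CPM), which also act in retinal cells, led them in retina. Their levels in animals 951, 959 and 962 lay within the range of the other 12 retinas. The next 2 factors were named after their values were seen. Pitx3, a homeobox factor of the developing lens, was at 0.248, 0.126 and 0.286 CPM in animals 959, 951 and 962, above the 0 to 0.123 CPM of the other 12, all within or under the range that 3 counts stand for. Foxe3, a lens epithelium factor, was at 0.189 CPM in the retina of animal 951 and had 0 counts in the other 14.

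The other small heat shock proteins, relatives of Cryaa and Cryab, were within the range of the other 12 retinas in all 3 lens-rich libraries for 6 of 8 genes, with Hspb3 and Hspb9 as exceptions. Of these 8 genes, 6, 7 and 6 were tested in retina, hippocampus and cortex, 0 were called, and 0, 0 and 1 had an unadjusted p under 0.05. Hspb6 was at 92.5, 89.3 and 87.7 CPM in retinas of animals 959, 951 and 962 and at 67.1 to 110.3 CPM in the other 12. Hspb8 was at 12.2, 12.1 and 16.9 CPM and at 7.76 to 20.9 CPM in the others. Hspb2, the neighbour of Cryab, was at 0.496, 0.819 and 0.772 CPM and at 0.202 to 1.55 CPM in the others. In animal 959, which had the highest Cryab, Hspb3 was at 0.931 CPM and Hspb9 at 0.684 CPM, above the other 12 retinas, which held at most 0.820 and 0.295 CPM. Both lay within the range of the other 12 in animals 951 and 962. The Spearman correlation of Hspb2 with Cryab over libraries was -0.14 in retina, -0.12 in hippocampus and 0.03 in cortex. Of 15 heat shock response genes, all were tested in each tissue, 0 were called, and 3, 0 and 4 had an unadjusted p under 0.05 in retina, hippocampus and cortex. Over all genes tested by edgeR in these tissues, 0.0474%, 0.0652% and 0.606% were called. The shares with an unadjusted p under 0.05 were 7.14%, 7.84% and 9.39%. For the lists of this kind the median log2 fold changes in retina were 0.065 for genes named crystallin, -0.024 for lens factors, 0.0063 for small heat shock proteins and -0.057 for heat shock response genes, beside 0.0026 over all genes tested.

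Likeness of pattern was described by the Spearman correlation over libraries, with no test. Among 13638 genes outside the members over the 15 retinas, Crygd was most like the summed 9 lens members (correlation 0.91), followed by Tmem14c (0.807), Rnd1 (0.796), Uprt (0.782), Slc39a14 (0.768), Acvrl1 (0.768), Endod1 (0.768), Kctd11 (0.764), Dpy19l4 (0.761) and Slc30a1 (0.761). The levels of Crygd in the lens-rich libraries lay far above those of the other 12. Those of Tmem14c did not, at 26.8, 27.9 and 26.4 CPM in animals 959, 951 and 962 and 20.5 to 29.4 CPM in the others. For Cryab in retina the list was Bfsp2 (0.911), Crygs (0.904), Mob3a (0.886), Crygd (0.875) and Crybb2 (0.853), of which 4 are lens genes. Crygs passed the filter only with the lens-rich libraries and had 0 counts in 7 of the other 12. Crygd was at most 0.258 CPM in those 12. The correlations of Crygs and Crygd thus rest in part on the lens-rich libraries and on tied low counts. In hippocampus it was Jmjd6 (0.873), Anxa6 (0.864), Cct3 (0.859), Rsl24d1 (0.824) and Rpl7l1 (0.82) over 14 libraries. In cortex it held Car2 (0.903), a carbonic anhydrase of oligodendrocytes, Ppp1r13l (0.895), Myo6 (0.89) and Fads1 (0.877) over 14 libraries. The points of each correlation share library depth and scaling. Correlations of neighbouring members are given with their limits. Cryba4 and Crybb1, the divergent pair, had a Spearman correlation of 0.77 in retina, 0.15 in hippocampus and 0.53 in cortex, and Crybb2 and Crybb3 of 0.35, 0.03 and 0.17. Crybb2 had 0 counts in 13 of 14 hippocampi and 12 of 14 cortices. Its ranks there were mostly ties, so its brain correlations cannot show whether the pair moved alike. In retina the lens-rich libraries were among the points, and most other values rested on few counts.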

How the data were processed

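Total RNA of retina, hippocampus and cortex had been extracted with AllPrep DNA/RNA Mini kits and made into libraries with the TruSeq RNA Library Prep Kit v2, per the labels' protocols. The authors deposited, per tissue, expected counts per gene, which need not be whole, for RefSeq genes, per the file headers. GRCm38, mm10 and DESeq are listed in the submitters' processing notes, with no role or version. Aligner, counter and strand setting are not given in the sources used, so reads of Cryab and of overlapping or antisense transcripts cannot be told apart. Of the 45 labelled libraries, 43 are used. The cortex library of male tamoxifen animal 962 held 4567 counts in all and 0 of the members and was left out, and the hippocampus of male vehicle animal 965 was not analysed here.

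Expected counts were rounded and tested with edgeR 4.0.16 (R 4.3.3, limma 3.58.1) by the quasi-likelihood test, after its filter on low counts (minimum 10, total 15) and TMM scaling, with a mean for each group of sex and treatment. Benjamini-Hochberg adjustment ran over all genes tested in a tissue, and a call is an adjusted p under 0.05. Tissues were compared in a joint fit of all libraries, whose TMM scaling assumes that most genes do not differ. Libraries of the same number came from the same animal in different tissues, so animal as a block was an alternative. The correlation of their deviations from group means over 13790 genes was -0.197 to 0.301. Treatment groups share no animals. The steps were also tested on simulated counts. CPM are expected counts per 1000000 of the TMM-adjusted library size. Intervals and the limits from a count of 0 (3 counts) cover counting error only. Replicates are animals by their numbers, and no pair agreed within sampling noise (smallest chi-square per gene 2.998). Exon lengths are from GENCODE.

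The members and gene lists were chosen with earlier results of these data known. Named are all 10 members, from each list every gene past the threshold and otherwise up to 4 with the highest mean CPM, and the genes most correlated with the lens sum (10) or with Cryab (5 per tissue), other choices being marked. A few genes that this rule or the lists hold are not reported here. Alternatives were RLE scaling, no filter, robust estimation, DESeq2 1.42.0, leaving out each animal, the animal block, vehicle libraries only, no lens-rich retinas, the lens sum as covariate, and cortex with all 15 libraries.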

Additional observations from a re-analysis of the deposited data

Results flagged for a closer look

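Each member, and the sum of the lens members, was tested in groups of 4 retina, hippocampus or cortex libraries with enough counts. Of these 45 tests, 21 held a library that stood apart from the other 3. Its gap to the nearest, as a share of the group's range, was over Dixon's 95% critical value. Chance alone flags about 1 in 20 independent tests. These tests were not independent, since the same libraries were tested for each gene and again for the sum. The 21 can thus not be set against that rate. Of the 21, 19 were the retinas of animals 959 and 951, each counted once per marked gene and once for the sum.

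In male tamoxifen retinas animal 959 stood above the others with 155.2 CPM of Cryaa, 47.84 CPM of Cryba1, 24.45 CPM of Cryba2, 22.48 CPM of Cryba4, 7.942 CPM of Crybb1, 121.4 CPM of Crybb2, 10.99 CPM of Crybb3, 38.01 CPM of Crygs, 52.06 CPM of Mip and 480.4 CPM of the 9 summed. In female tamoxifen retinas animal 951 stood above the others with 39.19 CPM of Cryaa, 12.97 CPM of Cryba1, 5.982 CPM of Cryba2, 5.391 CPM of Cryba4, 39.39 CPM of Crybb2, 5.769 CPM of Crybb3, 9.824 CPM of Crygs, 4.723 CPM of Mip and 124.9 CPM of the 9 summed. Animal 962, in the same group as animal 959, had 44.1 CPM summed and was not marked.

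The other 2 marked values were small. Cryab was at 96.89 CPM in the cortex of female tamoxifen animal 952 and at 94.14 to 94.27 CPM in the other 3. Crybb1 was at 0.8511 CPM in the retina of male vehicle animal 963 and at 0.1715 to 0.2851 CPM in the other 3.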

How the results depend on the processing

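The count of members called for tamoxifen was 0 in every tissue and contrast under every alternative run. Counts of members called between tissues moved. For retina over cortex the count was 9 with all libraries, 5 without the lens-rich retinas, 4 in vehicle libraries alone and 5 to 9 when each animal was left out, the lowest without animal 951. For retina over hippocampus it was 9, 5, 4 and 4 to 9 in the same order, again lowest without animal 951. For hippocampus over cortex it was 2, with 4 by DESeq2 and 2 when each animal was left out. With animal as a block, the counts were 8, 9 and 2, and Cryab was at -1.42, -1.04 and -0.38 on the log2 scale. Sex-averaged tamoxifen log2 fold changes in retina turned sign without the lens-rich retinas for Cryaa (-2.64), Cryba1 (-2.22) and Crybb2 (-0.16), the Cryaa and Cryba1 values depending on a group with no count. With the lens sum as covariate, which is made of these members, they turned for Cryaa (-0.60), Cryba1 (-0.87), Cryba2 (-0.48), Crygs (-1.05) and Mip (-0.046). The male minus female difference of Cryab in retina was -0.0096 without the lens-rich retinas and -0.0097 with the covariate, against 0.21. Leaving out each animal gave ranges across 0 for Cryab in cortex (-0.0114 to 0.0582), hippocampus (-0.0196 to 0.0759) and female retina (-0.00874 to 0.254), for Crybb1 in cortex (-0.0843 to 0.139), for Crybb3 in hippocampus (-0.059 to 0.351) and for Cryaa in retina (-0.0779 to 5.46). The cause of these moves was not tested. Depth limits the lens members in the 12 other retinas, where most had counts near or under 3 per library.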
